A study of Mus musculus with 36 samples.

Results

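Livers of wild type CBA/CaJ and wild type C57BL/6J (B6) mice were compared, the inbred strains that served as controls for different mutant lines in a panel of neural tube defect models. Of the 36 arrays of the series, 7 entered the comparison: CBA replicates 1 to 3 and B6 replicates 1 to 4, chosen by their titles. All came from females aged 6 to 8 weeks that had fasted for 4 to 5 hours before dissection, neither strain carried a mutant allele of the panel, and each array is labelled as a separate biological replicate. CBA replicate 4 was left out because its GAPDH control probes gave a 3'/5' ratio of 52.5, against 0.765 to 0.903 on the 7 arrays compared, a measure of RNA integrity. The other 7 groups are given below as levels beside CBA and B6. Their arrays also enter the fit that estimates the spread between mice, which held 34 arrays, so each test rests partly on them. They are Cd wild type and Lp wild type mice, heterozygotes for Lrp6 Cd, Vangl2 Lp, Pax3 Sp2H and Apob tm1Unc, and curly tail (ct) mice. Replicate 3 of ct, with a GAPDH ratio of 1.72, was left out of the ct levels and of the fit.

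Inbred strains differ at many loci, and the liver shows this in its detoxifying cytochromes P450, its lipid enzymes and its immune genes. CBA carries the k haplotype of the major histocompatibility complex (MHC), the cluster that encodes the proteins presenting peptides to T cells, and B6 carries the b haplotype. An Affymetrix probe set measures a gene with short probes of fixed sequence. A base that differs between strains under a probe changes the signal without a change in the amount of RNA, so that several probe sets of a gene were read side by side wherever the array holds them.

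Signals are array units scaled by the authors so that all arrays have nearly the same trimmed mean, and a difference is CBA minus B6 on the log2(signal + 23) scale with its standard error (SE) from limma. A probe set or gene is called where limma's p, adjusted by the method of Benjamini and Hochberg over all 26127 probe sets tested, is under 0.05, and the tested probe sets are those with a mean above a signal of 68.5. A gene is represented by its brightest tested probe set. Arrays of the same strain correlated at 0.952 to 0.964 in CBA and 0.958 to 0.966 in B6, and arrays of different strains at 0.945 to 0.955. Among the 7 arrays, B6 replicate 3 was the highest in every control 3'/5' ratio computed. Its pyruvate carboxylase ratio was 26.6, against 5.99 to 10.7 on the others. Its actin ratio was 2.30 against 1.86 to 1.94, and its GAPDH ratio 0.903 against 0.765 to 0.844.

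The strains differed at 738 of 12842 genes (5.75%), of which 361 (2.81%) were higher in CBA and 377 (2.94%) lower. At the level of probe sets, 1349 of 26127 (5.16%) were called. The difference passed 2-fold for 348 genes, 160 higher and 188 lower, and 8-fold for 17 genes, 8 higher and 9 lower. The median difference over all genes was 0.01. In 2671 genes (20.8%) the 3 CBA values did not overlap the 4 B6 values, and this held for 708 of the 738 called genes. The number of called genes was 428 without CBA replicate 2 and 400 without CBA replicate 3, of which 408 and 390 were among the 738. It was 644 without CBA replicate 1 and 567 to 625 when a B6 array was left out. Counts of list members below are to be read against the 2.81% and 2.94% of all genes called higher and lower.

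**Figure D1:**
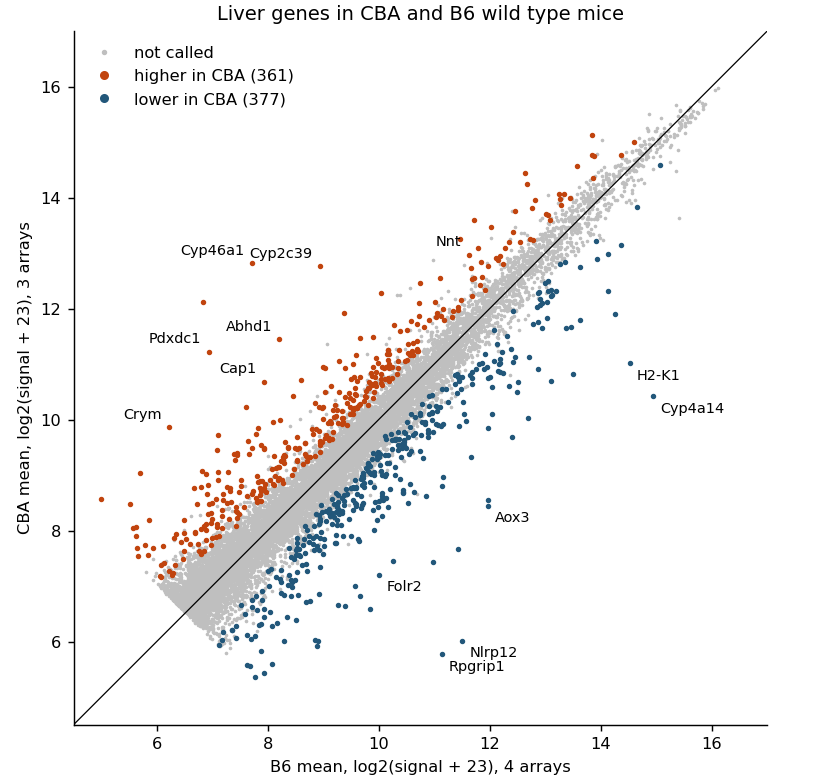
Mean log2(signal + 23) of each tested gene in B6 (horizontal axis, 4 arrays) and CBA (vertical axis, 3 arrays), with the 361 genes called higher and the 377 called lower in CBA coloured. Most genes lie on the diagonal, and the labelled genes such as Cyp46a1, Nlrp12 and Cyp4a14 lie far from it.

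Several genes were strong in one strain and many times dimmer in the other. Cyp46a1, which encodes the cholesterol 24-hydroxylase best known from brain, read 8018, 6722 and 6988 on the CBA arrays and 163, 184, 215 and 191 on the B6 arrays. Every CBA array was far above every B6 array, and the difference was 5.10 (SE 0.22, limma adjusted p = 9.12e-18). Nlrp12, an intracellular NOD-like receptor of the innate immune system, went the other way, with values from 17.1 to 83.2 in CBA against 2629, 2391, 1754 and 6356 in B6. Its difference was -5.50 (SE 0.36, limma adjusted p = 4.69e-13). Since the CBA values lie at or near the floor of the array, that size depends on the offset: it was -5.86 with an offset of 10 and -4.38 with 100. H2-K1, the classical MHC class I heavy chain of the K locus, was bright in B6 (24490, 22010, 24230 and 23400) and dim in CBA (1934, 2128 and 2097), a difference of -3.50 (SE 0.13, limma adjusted p = 6.77e-20).

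The promoters of these genes, one raised, one lowered and one of the MHC, are shown from the reference strain for orientation, from RefSeq (GRCm38.p6), 250 bases before to 50 after the start, 5′ to 3′ on the gene's strand. They lie at chr12:108334066-108334365 (plus strand, Cyp46a1), chr7:3249691-3249990 (minus strand, Nlrp12) and chr17:34000298-34000597 (minus strand, the first of 2 entries for H2-K1). Capitals mark matches, on both strands, to the letters TATAAA for the TATA box, to CCAAT for the box of that name, and to GGGCGG for the GC box.
Cyp46a1: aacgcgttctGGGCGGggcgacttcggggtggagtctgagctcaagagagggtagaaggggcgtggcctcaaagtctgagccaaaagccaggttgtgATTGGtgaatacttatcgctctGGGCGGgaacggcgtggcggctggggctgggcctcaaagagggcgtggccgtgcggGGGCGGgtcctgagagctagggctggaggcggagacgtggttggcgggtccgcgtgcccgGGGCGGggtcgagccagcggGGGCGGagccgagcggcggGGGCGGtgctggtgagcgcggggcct
Nlrp12: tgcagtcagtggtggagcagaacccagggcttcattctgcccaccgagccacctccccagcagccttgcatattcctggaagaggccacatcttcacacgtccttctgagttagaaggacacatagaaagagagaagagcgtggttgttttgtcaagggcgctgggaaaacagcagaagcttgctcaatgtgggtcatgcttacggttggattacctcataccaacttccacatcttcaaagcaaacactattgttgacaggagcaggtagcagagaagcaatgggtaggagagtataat
H2-K1: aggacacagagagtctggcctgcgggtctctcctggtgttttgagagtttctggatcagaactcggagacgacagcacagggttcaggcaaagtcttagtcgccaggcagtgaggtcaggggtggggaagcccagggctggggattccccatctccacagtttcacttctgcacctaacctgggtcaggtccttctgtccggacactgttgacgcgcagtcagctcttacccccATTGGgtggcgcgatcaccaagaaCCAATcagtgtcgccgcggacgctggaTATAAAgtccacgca
The Cyp46a1 window held 6 matches to GGGCGG and 1 to CCAAT, and the H2-K1 window 1 to TATAAA and 2 to CCAAT. The TATAAA of H2-K1 lay in the 50 bases after the start given, not before it, and is a match of letters only. No match to the searched letters was found in the Nlrp12 window. Of 32851 mouse promoter windows, 13.6% held TATAAA, 37.4% CCAAT and 35.7% GGGCGG, so the matches are a description and the CBA sequence was not analysed here.

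The 10 largest increases in CBA were led by 9130409I23Rik, a gene without an established function, and Cyp46a1. 9130409I23Rik read 3408, 5500 and 4547 in CBA and 141, 65.9, 68.1 and 102 in B6, a difference of 5.28 (SE 0.42). With an offset of 100 it was 4.55 against 4.67 for Cyp46a1, and without CBA replicate 2 it was 5.12 against 5.16. Cyp2c39, a retinoic acid metabolizing cytochrome of the Cyp2c cluster, read 5959, 7330 and 7678 in CBA and 296, 525, 488 and 625 in B6, a difference of 3.83 (SE 0.27). Crym, the thyroid hormone binding protein mu-crystallin, stood at 948, 948 and 826 in CBA against 16.2, 50.7, 97.8 and 67.8 in B6 (3.63, with 3.92 at an offset of 10 and 2.70 at 100). The largest increases and decreases were taken from called genes whose strains did not overlap, so their separation is part of the choice. In each of the genes above the lowest CBA array was several times the highest B6 array.

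The remaining increases of this size were of varied function. Ifi202b, an interferon-activable gene of the HIN-200 family, read 378, 378 and 316 in CBA and 3.21 to 20.1 in B6. Its B6 values lie below the filter level of 68.5, so its difference of 3.58 depends on the offset (4.31 with 10 and 2.06 with 100). For Elobl and Tmem87a, a membrane protein of the Golgi, the offset matters in the same way: 3.35 became 3.79 and 2.20, and 2.95 became 3.41 and 1.80. Abhd1, a hydrolase-fold protein, differed by 3.24 (2359, 2939 and 3077 against 247, 247, 292 and 309). Cap1, which binds actin monomers, was 1700, 1538 and 1627 in CBA and 312, 338, 177 and 123 in B6, a difference of 2.75. Its second probe set gave 2.78. Pdxdc1 differed by 4.29 at its brightest probe set, but its other probe sets went the other way, as described below.

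Cyp4a14, the fatty acid omega-hydroxylase that fasting and PPAR alpha raise, was the brightest of the 10 largest decreases. It reached 33520, 29430, 34960 and 29180 in B6 and 2164, 422 and 2608 in CBA, a difference of -4.53 (SE 0.52, limma adjusted p = 1.74e-07). CBA replicate 2 was the lowest, and the CBA arrays spread more widely than those of B6. Rpgrip1, a protein of the photoreceptor cilium, read 34.7, 11.7 and 58.7 in CBA and 2286, 2348, 2242 and 2054 in B6, a difference of -5.36 (SE 0.23). All CBA values lie below the filter level, and the difference was -5.79 with an offset of 10 and -4.12 with 100. Its 3 other probe sets were too dim to test in either strain. The decrease of Rpgrip1 therefore rests on 1 probe set.

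Defb1, an epithelial defensin, fell at both of its probe sets, by 3.55 and by 2.62 on the log2 scale. Its brighter probe set read 210, 109 and 143 in CBA and 1542, 1384, 2618 and 2841 in B6. Aox3, an aldehyde oxidase of the liver, read 592, 194 and 293 in CBA and 4680, 4845, 3581 and 3053 in B6 (difference -3.52, SE 0.34). Csad, the decarboxylase of taurine synthesis, read 379, 273 and 414 in CBA and 6530, 5616, 3879 and 1738 in B6 (difference -3.42, SE 0.52). The B6 arrays were spread over a wide range for Csad, though all lay above the CBA arrays, as the choice of these genes requires. The other decreases were Slc1a2, a glutamate transporter (-3.76), Zfp874a, a zinc finger protein (-3.25), and Trim30d, of the tripartite motif family (-2.98, with -3.35 at an offset of 10 and -1.98 at 100). For Slc1a2 the difference was -2.92 without CBA replicate 2 and -4.47 without CBA replicate 1.

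**Figure D2:**
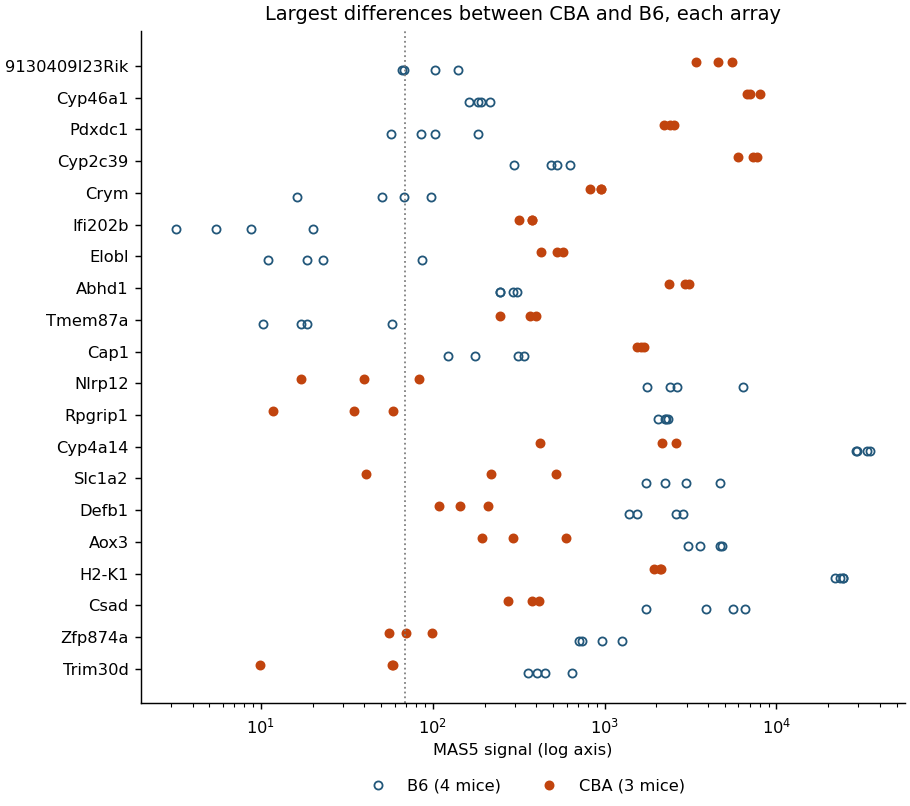
Signal on each CBA and B6 array (log axis) for the 10 largest increases and the 10 largest decreases in CBA. The genes were chosen among called genes whose CBA and B6 values do not overlap, so the separation is part of the choice. The dotted line marks the signal of 68.5 used as the filter. All CBA points of Rpgrip1 lie left of it.

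The levels in the other mice split these genes by stock. Cyp46a1 was high in ct (mean 5058) and low in Cd wild type (177) and Lp wild type (255). For 9130409I23Rik the mean was 2858 in ct and 3719 in Cd wild type but 322 in Lp wild type, and Cyp2c39 stood at 12810 in ct, 15920 in Cd wild type and 512 in Lp wild type. Rpgrip1 and Nlrp12 were as dim in ct (37.6 and 46.2) as in CBA, while Cd wild type (1396 and 1253) and Lp wild type (2161 and 1264) were bright. Defb1 was dim in Cd wild type (77.5) and not in ct (1384) or Lp wild type (1290), and Zfp874a gave 96.6, 1445 and 1128 in the same order.

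Over the 331 genes that were called, did not overlap and passed 2-fold, the ct mean was nearer to CBA than to B6 in 192 (58%). The same was found for 163 genes (49.2%) in Cd wild type, 148 (44.7%) in the Lrp6 Cd heterozygotes, 150 (45.3%) in Lp wild type and 146 (44.1%) in the Vangl2 Lp heterozygotes. In the Pax3 Sp2H heterozygotes it was 17 genes (5.14%) and in the Apob tm1Unc heterozygotes 50 (15.1%). These shares are descriptions, since the genes were chosen for a difference between CBA and B6.

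Probe sets of MHC genes disagreed widely between strains. Of 15 tested genes of class I and antigen processing, 1 was higher in CBA and 2 were lower (20%, against 5.75% of all genes), with a median difference of -0.06. All 4 tested probe sets of H2-K1 were lower in CBA, with differences of -3.50, -3.32, -1.58 and -3.96. H2-Bl, a class I gene outside the classical loci, was higher in CBA by 1.96 (585, 651 and 732 against 72.5, 181, 249 and 148).

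H2-D1, the other classical heavy chain on the list, had 8 tested probe sets, and their differences ran from -4.69 to 5.32. The probe set 1450170_x_at read 18110, 23420 and 23460 in CBA and 563, 563, 557 and 403 in B6. The probe set 1451784_x_at read 1640, 2273 and 2221 in CBA and 20310, 17670, 21240 and 21960 in B6. Each of them was thus among the bright signals of the array in one strain and far below in the other, in opposite strains, for a single gene symbol.

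That pattern followed the stock: in ct and Cd wild type the means of 1450170_x_at were 17520 and 18200, as in CBA, while Lp wild type had 665. For H2-K1 the means were 1845 in ct, 1546 in Cd wild type and 22700 in Lp wild type. Class I sequences of different loci resemble each other, and 7 of the 8 tested probe sets of H2-D1 and all of H2-K1 carry suffixes for probes shared between transcripts, so that signal cannot be assigned to a single locus. Leaving such probe sets out gave -0.82 for H2-D1 and no value for H2-K1.

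Of 9 class II genes tested, 1 was lower in CBA and none was higher (11.1%, against 5.75% of all genes), and the median was -0.46. H2-Aa, the alpha chain of the A molecule, read 880, 1148 and 955 in CBA and 1874, 3226, 4957 and 2800 in B6, a difference of -1.59 (SE 0.36). It was the only class II gene called, and it has no value when probe sets with shared targets are left out. Another tested probe set of H2-Aa gave -1.22, and a further one 0.39. H2-Ea, the alpha chain of the E molecule, whose B6 allele has a known promoter deletion, was dim in both strains at its brightest probe set (88.4, 109 and 116 in CBA, 73.6, 81.2, 102 and 117 in B6). At its second probe set, CBA (135, 115 and 133) lay above B6 (58.8, 46.5, 38.2 and 10.3), a difference of 1.37 with a limma adjusted p of 0.0225.

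The spread within genes was measured over 9351 pairs, each a further probe set of a gene set against its brightest. In 477 pairs (5.1%) the strain difference was not the same at the 2 probe sets, and these pairs lay in 402 of 5565 genes. Of the called genes, 392 had 1 tested probe set, which left nothing to compare, and 346 had more. In 111 of those 346 (32.08%) a pair differed, against 291 of 5219 (5.576%) uncalled genes. A gene is called at the same brightest probe set that enters each of its pairs, on the same arrays. That choice alone can raise the share among called genes, so nothing is concluded from the contrast. All other probe sets had the same sign as the brightest in 239 called genes, and in 106 at least 1 other probe set was itself called in the same direction. The number of pairs called was 306 without CBA replicate 2 and 259 without CBA replicate 3, and 414 without CBA replicate 1.

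In 7 genes, namely Dsg2, Eloa, Gfer, H2-D1, Mmut, Pdxdc1 and Zfp991, the brightest probe set and another were called in opposite directions. Genes whose brightest probe set was not called were not searched for opposite calls. Pdxdc1, a vitamin B6 dependent decarboxylase by sequence, rose at 1419327_at (2539, 2207 and 2385 in CBA, 85.3, 182, 56.8 and 103 in B6). At 1452705_at it was 180, 150 and 123 in CBA and 1518, 1711, 1804 and 1488 in B6. Both were closely repeated between arrays, and no single direction can be given for Pdxdc1.

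Mmut, the mitochondrial methylmalonyl-CoA mutase, differed by -1.11 at 1416838_at and by 2.41 at the dimmer 1416839_at. A further probe set, 1448486_at, gave -0.31 and was not called. Dsg2, a desmosomal cadherin, was lower at 3 called probe sets, including the brightest (-1.09), and higher at 1426153_a_at (2.09). Whether such splits come from sequence differences under the probes, from splicing or from other transcripts was not tested.

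Some genes with the smallest within-gene p were not called at their brightest probe set. Rps9, a protein of the small ribosomal subunit, read 12640, 14420 and 13410 in CBA and 13640, 12400, 12490 and 15580 in B6 at its brightest probe set, a difference of 0.00. Another probe set of Rps9 read 452, 730 and 696 in CBA and 8596, 11210, 13180 and 10440 in B6, a difference of -4.08. Psmd6, a subunit of the proteasome lid, gave 0.28 and -2.69, and Uqcr10, a subunit of respiratory complex III, gave 0.46, -3.77 and -2.05. A reader of the dimmer probe set alone would take each of these genes as strongly lower in CBA.

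Ang, the secreted ribonuclease angiogenin, was called lower at its brightest probe set (-1.83) and lower still at another (-4.90, with 1729, 1242 and 1914 in CBA against 43550, 46020, 52330 and 52220 in B6). Another gave 0.27. The direction for Ang therefore depends on the probe set, and becomes 0.27 when probe sets with shared targets are left out. Fam126b, a component of a lipid kinase complex, gave -0.20, -0.61, -3.43 and -1.57 at its 4 tested probe sets. Kif5b, the heavy chain of kinesin-1, ranged from -1.88 to 1.23, and Efhd2, a calcium-binding protein, fell at both probe sets, by 2.66 and by 0.70 on the log2 scale.

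**Figure D3:**
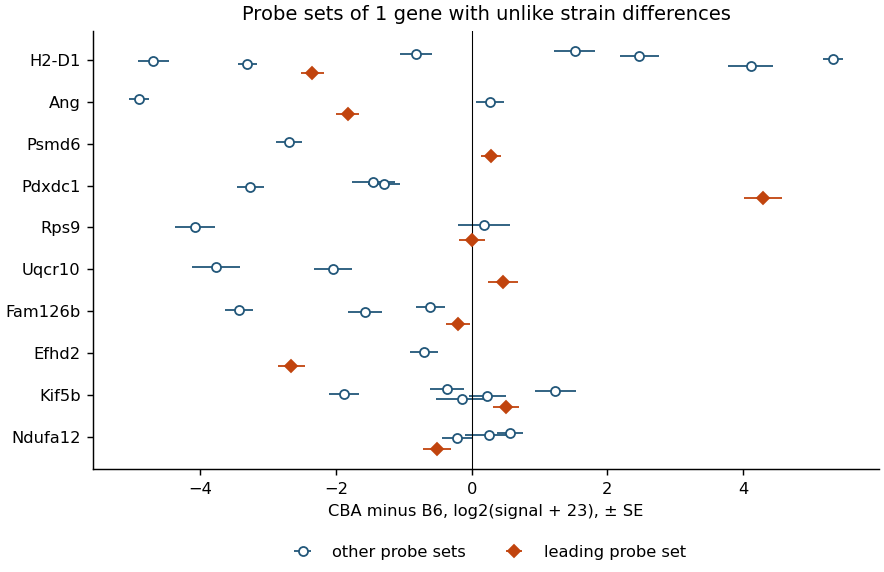
CBA minus B6 log2 difference with its SE at each tested probe set of the 10 genes with the smallest p of a within-gene difference, the brightest (leading) probe set as a diamond. H2-D1 spans -4.69 to 5.32, and Rps9 has its brightest probe set at 0.00 and another at -4.08.

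Cytochromes and other drug-metabolizing enzymes held large differences in both directions. In the Cyp2 family 3 of 28 tested genes were higher in CBA and 1 was lower (14.3%, against 5.75% of all genes), with a median of 0.09. Beside Cyp2c39, Cyp2g1 rose by 1.97 (841, 715 and 730 against 134, 296, 224 and 104). Cyp2c23, an epoxygenase of arachidonic acid, was lower, with 1491, 1764 and 2146 in CBA and 12990, 14040, 10470 and 9625 in B6, a difference of -2.69 (SE 0.27). It has no value when probe sets with shared targets are left out. Cyp2d9 rose by 1.79, and that call was lost without any one of 5 arrays, CBA replicates 1, 2 or 3 or B6 replicates 1 or 2, with limma adjusted p-values up to 0.104.

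Of 21 further cytochromes and their regulators, 7 were lower in CBA and none was higher (33.3%, against 5.75% of all genes), with a median of -0.03. Cyp4a31, next to Cyp4a14 in the Cyp4a cluster, read 370, 460 and 447 in CBA and 2140, 2277, 2162 and 2421 in B6, a difference of -2.34. Cyp17a1, the steroid 17-hydroxylase, read 953, 527 and 1006 in CBA and 3402, 3828, 8552 and 7764 in B6, a difference of -2.73. Cyp3a13 was lower too, with 1527, 1369 and 1367 against 5570, 5632, 6648 and 5233 (limma adjusted p = 9.44e-08). In all of them the strains were separate, and in Cyp17a1 the B6 arrays split into a lower and a higher pair.

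Ephx1, the microsomal epoxide hydrolase, was lower in CBA, with a difference of -1.79 (2817, 3071 and 3911 against 14100, 13960, 10370 and 7808). It was the only gene called lower among 30 glutathione transferases and Nrf2 targets, and 1, Gstm5 (0.58), was called higher. The call for Gstm5 was lost in 14 of 21 alternative settings, among them leaving out any one of the 7 arrays except B6 replicate 3, with differences of 0.50 to 0.61. None of 11 sulfotransferases was called by limma, 2 were under an unadjusted p of 0.05, 10 of the 11 differences were positive and the median was 0.46. The sulfotransferase differences ran from -0.30 to 0.82.

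Nnt, the mitochondrial transhydrogenase that makes NADPH and carries a known deletion of exons in C57BL/6J, read 8840, 6835 and 8457 in CBA and 2858, 3597, 3618 and 2602 in B6. Both of its tested probe sets gave 1.34 (SE 0.19 and 0.20). B6 retained a clear signal at these probe sets. With Aox3 it belongs to 21 tested genes of aldehyde oxidation and nicotinamide metabolism, of which 3 were higher and 2 lower (23.8%, against 5.75% of all genes), with a median of 0.04. Aldh1a7, a cytosolic aldehyde dehydrogenase, was the second increase, with 10930, 17240 and 15800 in CBA and 8061, 6833, 7205 and 5852 in B6 (1.05, SE 0.23). Xdh, the xanthine dehydrogenase of purine breakdown, was lower, with a difference of -0.94. Its call was lost without CBA replicate 2 (-0.89, limma adjusted p = 0.0554) or 3 (-0.74, limma adjusted p = 0.119).

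Lists of lipid genes had medians of opposite sign for oxidation and synthesis. Of 34 tested genes of fatty acid oxidation and PPAR alpha targets, 30 had negative differences (6311 of 12842 over all genes). The median was -0.38, and 17 were under an unadjusted limma p of 0.05 (2391 of 12842 over all genes). Limma called 2 of the 34 lower (5.88%, against 2.94% of all genes). The larger of these was Acot1, the fasting-inducible cytosolic acyl-CoA thioesterase, with 656, 694 and 1610 in CBA and 4291, 3630, 3961 and 4207 in B6 (-2.12, SE 0.55). Its call was lost without CBA replicate 1 (-1.90, limma adjusted p = 0.0807) or 2 (-1.94, limma adjusted p = 0.103). With ct replicate 3 in the fit the Acot1 call was lost too (limma adjusted p = 0.0564). Pex11a, of peroxisome division, was lower, with a difference of -0.85. That call was lost without any one of the 7 arrays except B6 replicate 2, with differences of -0.71 to -0.93.

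Of 20 tested genes of cholesterol synthesis, 16 had positive and 4 negative differences (6311 of 12842 negative over all genes). The median was 0.72, and 9 were under an unadjusted limma p of 0.05 (2391 of 12842 over all genes). Limma called 2 of the 20 higher (10%, against 2.81% of all genes). Pmvk, the phosphomevalonate kinase, read 1550, 2356 and 2254 in CBA and 965, 761, 677 and 542 in B6 (1.46, SE 0.36). Lss, the lanosterol synthase, read 1262, 1988 and 1858 in CBA and 704, 925, 585 and 628 in B6 (1.23, SE 0.28). The call was lost without CBA replicate 2 for Pmvk (1.35, limma adjusted p = 0.0782) and for Lss (1.11, limma adjusted p = 0.0507), and for Pmvk also without CBA replicate 3 (1.38, limma adjusted p = 0.0710). CBA replicate 1 was the lowest CBA array for both.

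Among 33 genes of fatty acid and triglyceride synthesis, 2 were called higher and 1 lower (9.09%, against 5.75% of all genes). The median was 0.23, and 12 were under an unadjusted limma p of 0.05. Acly, the ATP citrate lyase that supplies cytosolic acetyl-CoA, read 14740, 23810 and 21120 in CBA and 13180, 7526, 4823 and 3766 in B6 (1.58, SE 0.46). B6 replicate 1 nearly reached the lowest CBA array, and the call for Acly was lost without CBA replicate 2 or 3 or B6 replicate 2, 3 or 4, with differences of 1.32 to 1.65. None of 26 genes of lipoproteins and sterol efflux was called by limma or was under an unadjusted p of 0.05, with a median of -0.15. Of 27 bile acid genes, 2 were higher and 1 lower (11.1%, against 5.75% of all genes). Cyp7b1, the oxysterol 7-hydroxylase, gave 1.05 and 1.12 at its 2 tested probe sets, and its call was lost without CBA replicate 1 (0.80, limma adjusted p = 0.107).

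**Figure D4:**
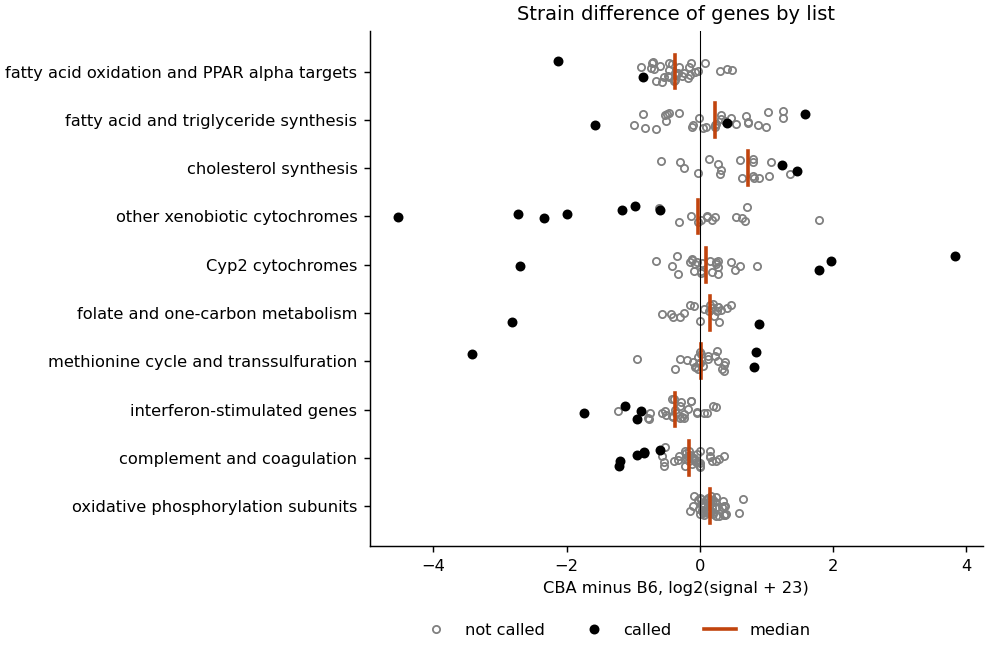
CBA minus B6 log2 difference of each tested member of 10 gene lists, with called members filled and the list median drawn as a bar. Cholesterol synthesis genes lie mostly above 0 with a median of 0.72, and fatty acid oxidation genes mostly below with a median of -0.38.

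Markers of Kupffer cells, the resident macrophages of the liver, gave lower signals in CBA. All 12 tested markers had negative differences, 7 of the 12 were called lower (58.3%, against 2.94% of all genes), and the median was -0.68. Cd5l, a secreted macrophage protein, read 2072, 2820 and 1885 in CBA and 5423, 6094, 8883 and 6714 in B6 (-1.57, SE 0.19). Lyz2, the myeloid lysozyme, read 1005, 1374 and 894 in CBA and 2350, 2436, 2916 and 4449 in B6 (-1.43, SE 0.28). Clec4f, the lectin that defines mouse Kupffer cells, was 2824, 2986 and 2139 in CBA and 3509, 3806, 5723 and 5312 in B6. Every CBA array lay below every B6 array in these genes.

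The summed signal of the 13 Kupffer markers was 18081 to 24069 in CBA and 31455 to 44863 in B6. Marco, a scavenger receptor, was too dim to test, at 10.4 to 22.5 in CBA and 113 to 311 in B6. Vsig4 (2157, 3291 and 2234 against 3121, 3199, 3505 and 4712) overlapped between strains. So did Timd4 (202.6 to 287.8 in CBA, 245.2 to 368.9 in B6) and Cd68 (349.3 to 420.9 in CBA, 418.5 to 611 in B6). The number of markers called lower was 3 without CBA replicate 3, 4 without B6 replicate 3 and 3 with ct replicate 3 in the fit. In pieces of whole liver, fewer Kupffer cells and less RNA per cell cannot be told apart. Summed hepatocyte markers were 286879 to 311465 in CBA and 315725 to 350460 in B6, with none of 9 markers called by limma and 1 under an unadjusted p of 0.05. The sums of endothelial, stellate and neutrophil markers overlapped between strains.

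**Figure D5:**
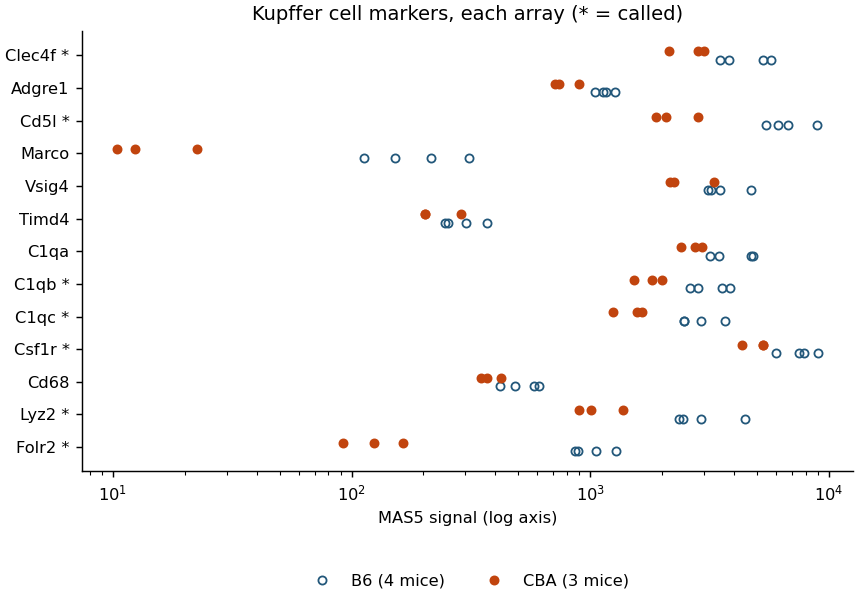
Signal of each Kupffer cell marker on the 3 CBA and 4 B6 arrays (log axis), with called markers starred. CBA points lie below the B6 points for Folr2, Cd5l, Lyz2 and Clec4f, while those of Vsig4, Timd4 and Cd68 overlap.

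Folr2, the folate receptor beta of macrophages, had the largest difference of the tested Kupffer markers, which do not include Marco. It read 92.0, 124 and 165 in CBA and 884, 866, 1061 and 1285 in B6, a difference of -2.82 (SE 0.18, limma adjusted p = 3.63e-13). ct was as low as CBA (mean 172), while Cd wild type (760) and Lp wild type (664) were closer to B6. Whether the lower Kupffer signal has a part in this difference was not tested. Among 23 tested genes of folate and one-carbon metabolism Folr2 was the only gene called lower and Ggh the only gene called higher. That is 8.7%, against 5.75% of all genes. Of the 23 differences 8 were negative, and the median was 0.16. Ggh, the hydrolase that trims folate polyglutamates, was higher by 0.89 (1137, 1663 and 1425 against 779, 738, 613 and 847). The call for Ggh was lost without CBA replicate 2 (0.77, limma adjusted p = 0.0977) or 3 (0.88, limma adjusted p = 0.0530).

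In the methionine cycle and transsulfuration, 2 of 26 tested genes were called higher and only Csad was called lower, with a median of 0.01. The called share was 11.5%, against 5.75% of all genes. Mtap, which salvages methionine from methylthioadenosine, read 2012, 1887 and 2229 in CBA and 1053, 950, 1523 and 1145 in B6 (0.81, SE 0.18). Mtrr, the reductase that reactivates methionine synthase, was higher by 0.84 (443, 595 and 422 against 225, 291, 318 and 212). Its call was lost without CBA replicate 2 (0.69, limma adjusted p = 0.106). With CBA replicate 4 and ct replicate 3 included the Mtrr call was lost too (0.50, limma adjusted p = 0.210).

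Complement and coagulation genes and interferon-stimulated genes were called in CBA only as lower. For complement and coagulation this was 6 of 40 (15%, against 2.94% of all genes), with a median of -0.16. F12, coagulation factor XII made by hepatocytes, read 3710, 3482 and 3711 in CBA and 7924, 8383, 8644 and 8487 in B6 (-1.20, SE 0.13), with tight values in both strains. C1qc, a chain of the first complement component made by macrophages, was 1565, 1639 and 1247 in CBA and 2458, 2480, 2916 and 3661 in B6 (-0.94, SE 0.22). Without CBA replicate 3 its limma adjusted p was 0.0704 and the count of 6 became 3, and with ct replicate 3 in the fit the count was 2. C1qb and C1qc also stand on the Kupffer list, whose summed signal moved the same way, and the part of that shift in these results was not tested.

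For interferon-stimulated genes, 4 of 32 were lower (12.5%, against 2.94% of all genes), 28 of the 32 differences were negative (6311 of 12842 over all genes), and the median was -0.37. Rsad2, the antiviral enzyme viperin, read 808, 328 and 306 in CBA and 1172, 1354, 1875 and 1706 in B6 (-1.74, SE 0.41). Gbp7, a guanylate-binding protein, fell at both of its tested probe sets, by 1.13 and by 1.16 on the log2 scale. The count of 4 became 2 without CBA replicate 2 and 0 without CBA replicate 3, where the limma adjusted p was 0.0793 for Rsad2, 0.0658 for Gbp7, 0.116 for Trim30a and 0.105 for Irf7. The summed Kupffer signal was lower in CBA here too, and its part in the result was not tested.

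Among 26 tested genes of iron, heme and metallothioneins, 3 were called higher and 1 lower (15.4%, against 5.75% of all genes). Alad, the second enzyme of heme synthesis, read 16940, 13580 and 17690 in CBA and 6969, 7100, 8699 and 6316 in B6 (1.14, SE 0.17), and gave 0.57 (limma adjusted p = 0.262) with CBA replicate 4 and ct replicate 3 included. Mt1, a metal-binding metallothionein, read 41500, 28210 and 39930 in CBA and 5439, 22750, 20560 and 18560 in B6 (1.29, SE 0.37), and Mt2 25820, 17920 and 23830 against 1984, 11280, 9036 and 7916 (1.81, SE 0.48). B6 replicate 1 was far below the other B6 arrays for both, and without it the differences were 0.81 for Mt1 (limma adjusted p = 0.194) and 1.26 for Mt2 (limma adjusted p = 0.120). Both calls were also lost without CBA replicate 1 (1.19 and 1.70) or 3 (1.21 and 1.76), and Mt1 without CBA replicate 2 (1.46). Without probe sets with shared targets, Mt1 is read by another, dim probe set and gave 0.39 (limma adjusted p = 0.847).

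Igfbp1, the fasting-responsive binding protein of insulin-like growth factors, read 4740, 2496 and 3756 in CBA and 12650, 7048, 16470 and 17100 in B6 (-1.82, SE 0.33). Ldha, the lactate dehydrogenase A chain, was 13470, 13570 and 16780 in CBA and 27530, 23440, 26050 and 25980 in B6 (-0.82, SE 0.16), and was the only call among 31 genes of glucose, glycogen and amino acid metabolism. Hspb1, a small heat shock protein, fell by 1.48 on the log2 scale and was the only call among 26 heat shock and ER stress genes. None of 46 subunits of oxidative phosphorylation was called by limma and 7 were under an unadjusted p of 0.05, with a median of 0.15 and differences from -0.15 to 0.65.

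No gene mutated in the panel was called between these control strains. Lrp6 differed by -0.48 (limma adjusted p = 0.454), Apob by -0.57 (limma adjusted p = 0.568) and Vangl2 by 0.17 (limma adjusted p = 0.865), with overlapping arrays in each, and Vangl2 was -0.01 without CBA replicate 2. Pax3 and Grhl3 were too dim to test. At this number of arrays a missed call does not show that a gene is equal in both strains.

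The chromosomal order of the called genes was read from the RefSeq annotation. Of 737 called genes placed in that order, 144 (19.5%) had a called gene as the adjacent tested gene, while 11% of all 12824 placed genes had one. Both genes went in the same direction in 51 of the 75 adjacent called pairs. The longest run was 4 interferon-inducible genes of the HIN-200 family, Ifi213 (-2.12), Ifi209 (-1.38), Ifi207 (-1.09) and Ifi204 (-1.36), all lower in CBA. Ifi202b, of the same family, was not in this run and was called higher (3.58). Cyp4a14 (-4.53), Cyp4a31 (-2.34) and Cyp4b1 (-0.85) formed a second run, and Clns1a (-0.82), Aqp11 (-0.56) and Myo7a (-2.28) the third. Neighbouring genes can share probe sequences within a family, and neighbours are not independent observations.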

How the data were processed

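Liver RNA was hybridised to Affymetrix mouse arrays, 1 array per mouse. The authors deposited 1 value table of intensity values made with MAS5, per the submitters' processing notes; its version is not given in the sources used here. Trimmed means (2% at each end) of 499.74 to 499.829 on all 36 arrays show the common scaling, and no raw scanner data were used. Of 45037 probe sets without the 64 controls, 34945 had 1 gene symbol, 932 several and 9160 none in the platform annotation; only the first kind names a gene.

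Values were tested as log2(signal + 23) with limma 3.58.1 (R 4.3.3; lmFit, eBayes with trend, two-sided, Benjamini-Hochberg). The fit held 34 arrays of 9 groups, each with its own mean (25 residual degrees of freedom). Probe sets were tested if the mean of the CBA and B6 means passed the 40th percentile of the 7 arrays. For pairs, the log2 difference between probe sets was tested per array. P-values measure the spread between single mice, and the number of arrays limits the precision.

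Genes named are the 10 largest non-overlapping increases and decreases, up to 4 called genes of each list, the 10 genes with the smallest within-gene p, Nnt, H2-Ea and the 5 mutated genes; genes with opposite calls, neighbour runs and uncalled markers were added as complete sets or as examples chosen after their values were seen. Members and lists were chosen with earlier results of these data known. On simulated data of 26478 probe sets, 55 of 100 probe sets changed 2-fold and 84 of 100 changed 4-fold were called, with 6 false calls. Of 109 changed pairs 50 were called, with 12 false calls. False calls thus made up a larger share of the called pairs than of the called probe sets. Alternatives covered the offset, filter, normalization, spread model, arrays and probe set choice.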

Additional observations from a re-analysis of the deposited data

Results flagged for a closer look

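In 3 of 91 named genes, 1 of the 4 B6 arrays stood apart by Dixon's criterion, in which the gap to the nearest array is set against the range of the group. Chance marks about 1 in 20 groups, so 3 of 91 is no more than chance gives. For Mt1, B6 replicate 1 was the lowest array, with a gap of 0.858 of the range. For Car1, the carbonic anhydrase of red cells, B6 replicate 3 was the highest, with a gap of 0.871. For Vangl2, B6 replicate 2 was the lowest, with a gap of 0.923.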

How the results depend on the processing

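When 1 array was left out, called probe sets ranged from 736 to 1230, called genes from 400 to 644 and called pairs from 259 to 424. Array weights changed the counts most and raised them to 3059 probe sets, 1658 genes and 825 pairs, of which 735 genes were shared. All other settings stayed within 1.5 times the reported counts, but a similar count can hold other genes. The 7 compared arrays alone gave 774 genes, of which 575 were among the 738. Mt1, Mt2 and Gstm5 were among the genes that lost the call there. Arrays centred on their median gave 567 genes, 44.1% of them higher against 48.9%. Including ct replicate 3 in the fit gave 589 genes, all 589 shared, and including CBA replicate 4 as well gave 912, of which 535 were shared. The deviations of same-numbered CBA and B6 arrays correlated at -0.148, -0.130 and -0.002, and those of differently numbered arrays at -0.182 to 0.218. With so few arrays these values cannot show whether equal numbers mark anything shared. A replicate block gave 1184 probe sets, 646 genes (626 shared) and 401 pairs.

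Of the 81 called genes named, 41 kept call and direction in every setting, 39 lost the call in at least 1 and Ang turned to 0.27 without probe sets of shared targets. Differences that were not called also changed sign. Rps9 was -0.09 with quantile normalization, -0.01 with median centring, -0.38 with CBA replicate 4 and ct replicate 3 included, and from -0.05 to 0.07 when 1 array was left out, negative without CBA replicate 2, B6 replicate 2 or B6 replicate 3. Fam126b was 0.27 with CBA replicate 4 and ct replicate 3 included, Ndufa12 0.26 without probe sets of shared targets, and Vangl2 from -0.01 (without CBA replicate 2) to 0.28 when 1 array was left out. The cause was not tested, beyond the change of probe set for Ang and Ndufa12. Genes whose signal in 1 strain lies below 68.5 have a fold that moves with the offset.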

Other observations

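Among genes known to differ between male and female liver, 3 of 17 tested male-biased genes were higher in these female CBA livers than in B6 and none was lower, while 2 of 18 female-biased genes were lower and none was higher. Over all genes 2.81% were higher and 2.94% lower. Without CBA replicate 1 the 3 male-biased calls became 1. The medians were 0.27 and 0.21. Cela1, an elastase on the list of pancreas markers, was higher in CBA (4316, 3181 and 3074 against 1390, 1326, 1427 and 1951; 1.20, SE 0.25). Its call was lost with CBA replicate 4 and ct replicate 3 included (0.93, limma adjusted p = 0.0510). No other pancreas marker was called. Prss2 read 400, 435 and 402 in CBA and 224 to 316 in B6 (0.55, limma adjusted p = 0.393), Cela2a 23.6 to 79.2 and 113 to 164 (-1.35, limma adjusted p = 0.0667), and Cpa1 was too dim to test. The summed signal of the 9 named pancreas markers was 4033 to 5382 in CBA and 2227 to 3049 in B6, of which Cela1 made up most.

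Apcs, the serum amyloid P component, was higher in CBA (21590, 29360 and 22290 against 11840, 10090, 10970 and 16540; 0.99, SE 0.22), and its call was lost without CBA replicate 2 (0.85, limma adjusted p = 0.0531). Ugt2b1, a glucuronosyltransferase, was higher by 0.81 (16840, 19060 and 15640 against 10500, 9771, 7700 and 11500). That call was lost with ct replicate 3 in the fit (limma adjusted p = 0.129).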
